A study of Mus musculus with 27 samples.

Results

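The smooth muscle contractile genes described here were Acta2, Actg2, Tagln, Cnn1, Myh11, Myl9, Tpm2 and Des, 8 genes chosen by name and read through the gene symbols of the array platform, where they had 15 of the 45101 probe sets. For each gene the brightest probe set, by mean signal over all arrays, was used and the others served as a check. Of the 8 genes, 7 passed the filter on low signals and were tested among 13297 genes in all, while Myh11 did not. The samples were mouse embryonic stem cells of the AB2.2 line carrying a lentiviral vector with a short hairpin RNA (shRNA) and the eGFP fluorescent marker, on which transduced cells were sorted by flow cytometry. In the Sox17 shRNA arm the hairpin was directed against Sox17, a transcription factor of endoderm, and in the control arm against firefly luciferase, which mouse cells do not have. Cells of both arms were grown as embryoid bodies in hanging drops, moved to culture plates after 4.5 days, and collected at 7 times: day 0, day 2, days 4 to 6, day 8 and day 10. Each of the 14 groups of arm and day had 2 biological replicates, except the Sox17 shRNA arm at day 0, which had 1 array. All values are log2 expression, so a difference of 1 is a doubling, and every arm difference is Sox17 shRNA minus control.

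Smooth muscle shortens when myosin filaments pull on actin filaments. Acta2 and Actg2 encode smooth muscle actins, Myh11 the smooth muscle myosin heavy chain and Myl9 a regulatory light chain whose phosphorylation starts contraction. Tpm2 encodes a tropomyosin that lies along the actin filament, Cnn1 encodes calponin and Tagln encodes transgelin (SM22), both actin-binding proteins, and Des encodes desmin, the intermediate filament of muscle cells. Many of these genes are switched on by serum response factor (Srf) with a coactivator, either myocardin (Myocd) or a myocardin-related factor (Mrtfa, Mrtfb). Apart from Myh11, the genes are not exclusive to smooth muscle: Acta2, Tagln and Cnn1 are also expressed for a time in the embryonic heart, Acta2 and Tagln in activated fibroblasts, and Des in heart and skeletal muscle. In bulk RNA, fewer cells of a type and less RNA per cell cannot be told apart.

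The DNA element that Srf binds is the CArG box, and the promoters below are shown because the gene of a smooth muscle actin (Acta2) and that of the heart actin (Actc1) carry the same box while their arm differences, given further on, were unlike. The windows are the 200 bases before the annotated start, 5′ to 3′ on the strand of the gene, from RefSeq on GRCm38.p6, with CArG boxes in capitals; Myl9 is the smooth muscle gene of the matched ones with a box of the strict consensus.
Acta2, chr19:34255374-34255573, minus strand: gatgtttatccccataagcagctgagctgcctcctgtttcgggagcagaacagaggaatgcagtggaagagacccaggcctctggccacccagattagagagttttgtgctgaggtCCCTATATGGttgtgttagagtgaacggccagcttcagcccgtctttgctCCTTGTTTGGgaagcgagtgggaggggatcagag
Myl9, chr2:156775264-156775463, plus strand: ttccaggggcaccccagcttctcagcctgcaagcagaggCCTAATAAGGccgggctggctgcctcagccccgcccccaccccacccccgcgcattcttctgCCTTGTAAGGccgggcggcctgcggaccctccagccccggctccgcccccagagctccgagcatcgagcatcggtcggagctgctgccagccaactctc
Actc1, chr2:114052876-114053075, minus strand: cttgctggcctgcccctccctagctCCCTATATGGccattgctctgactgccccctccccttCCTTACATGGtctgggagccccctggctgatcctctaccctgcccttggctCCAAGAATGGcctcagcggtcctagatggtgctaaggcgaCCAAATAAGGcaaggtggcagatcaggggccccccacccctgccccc
The Acta2 window held CCCTATATGG, 84 to 75 bases before the start, and CCTTGTTTGG, 34 to 25 bases before it, each with 1 C or G in the core of the box. Actc1 held the same CCCTATATGG, 175 to 166 bases before its start, and the consensus box CCAAATAAGG 47 to 38 bases before it. In Myl9 a consensus box, CCTAATAAGG, lay 161 to 152 bases before the start. Promoters of 5 members were matched by symbol (Acta2, Cnn1, Myl9, Tpm2 and Des). Over the window from 250 bases before to 50 bases after the start, a consensus box, which reads the same class of letters on both strands, was present in 1 of these 5, in 6 of 31 heart muscle promoters (19.4%) and in 1.63% of all 32851 promoters. With 1 C or G allowed in the core the counts were 2 of 5 and 8 of 31 (25.8%), beside 9.98% of all promoters. A match is a description of letters and does not show binding.

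Array medians lay between 5.50 and 5.56. Sox17, the targeted gene, averaged 3.99-fold lower under its shRNA from day 4 to day 10 (adjusted p = 0.000363), and single arrays departed from this. At day 5 the Sox17 difference did not pass the test (-1.45, SE 0.80, adjusted p = 0.307), nor at day 6 (-0.60, adjusted p = 0.835) or day 8 (-1.88, adjusted p = 0.25). Its signal on replicate 2 of the Sox17 shRNA arm was 9.39 at day 4, 10.08 at day 5 and 9.39 at day 6. The control arrays read 10.30 and 10.66 at day 4, 10.38 on both at day 5, then 9.83 and 9.35 at day 6, so the last of these Sox17 shRNA arrays lay within the control values. The arrays of replicate 2 at days 4 and 6 also had the largest differences between the 3′ and 5′ actin control probe sets, a sign of RNA quality (0.86 and 0.75, against 0.33 to 0.55 on the other arrays). The bioB spike-in, a hybridisation control, read 8.73 to 9.26 at days 0 and 2 and on replicate 1 of day 4, and 6.30 to 7.75 on the other arrays, so that comparisons of late days with day 0 cannot be told apart from it. The main results of days 4 to 6 and of the day 4 to 10 average are also given with these 3 arrays left out together, which leaves 1 Sox17 shRNA array at each of those days.

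In control cells the contractile genes came on in steps. Between days 0 and 10, 7 of 7 genes tested rose, with a median rise of 4.68, where 31.5% of all genes rose and the median of all genes was -0.13. Actg2 exceeded the filter level (5.53) on 9 of 27 arrays, all at day 6 or later, so its rise was bound to the way it entered the test. By day 2, 4 of the 7 had risen (Tagln, Tpm2, Myl9 and Cnn1; 16.6% of all genes rose): Cnn1 by 2.15 (SE 0.26, adjusted p = 4.78e-06), Myl9 by 2.08 (SE 0.31, adjusted p = 5.82e-05), Tpm2 by 1.21 (SE 0.23, adjusted p = 0.000515) and Tagln by 1.10 (SE 0.38, adjusted p = 0.0326). Tagln, Myl9 and Cnn1 were then lower at day 5 than at day 4, 3 of 7 genes where 10.2% of all genes changed in either direction. From day 5 to day 6, the step after plating, 7 of 7 rose in the control arm (11.2% of all genes) and 6 of 7 in the Sox17 shRNA arm (9.81%), Des being the exception there.

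**Figure D1:**
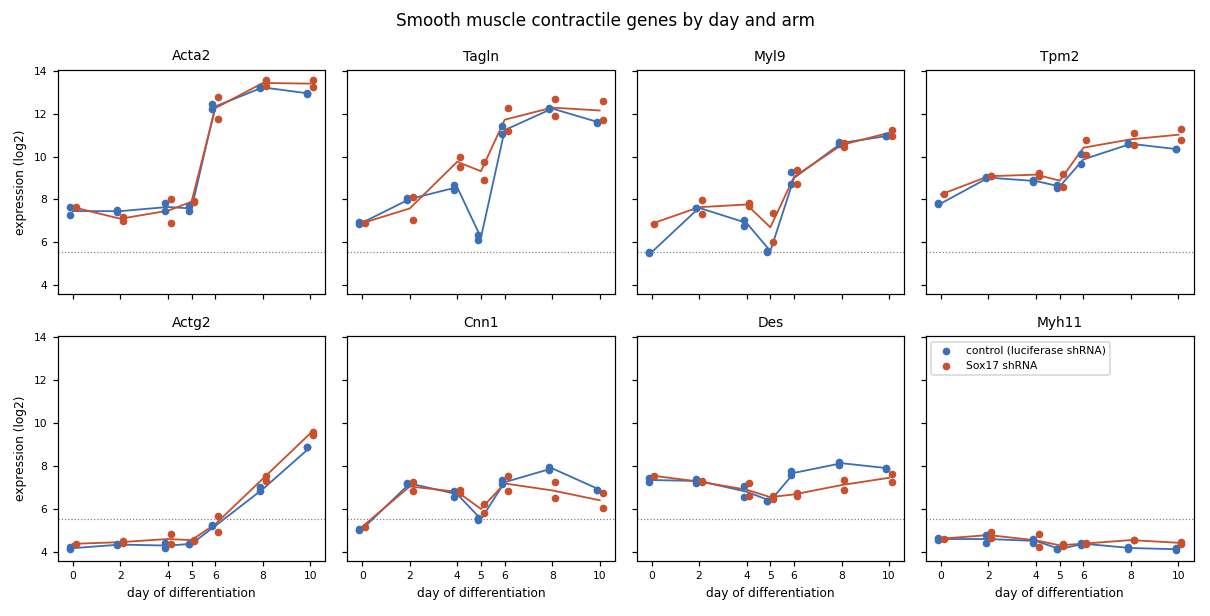
Log2 expression (vertical axes) of the 8 smooth muscle contractile genes by day of differentiation (horizontal axes) on each array, in the control arm (blue) and the Sox17 shRNA arm (red); lines join group means, and the dotted line is the filter level of 5.53. Acta2 rises at day 6 in both arms, Tagln falls to 6.08 and 6.35 in the control arm at day 5, Des stays lower in the Sox17 shRNA arm at days 6 and 8, and Myh11 lies under 5 on all arrays.

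Acta2, the actin typical of vascular smooth muscle, rose steeply at day 6 in both arms. Its control arrays read 7.25 and 7.65 at day 0, 7.68 and 7.47 at day 5, 12.21 and 12.47 at day 6, then 12.95 and 12.92 at day 10. The Sox17 shRNA arrays read 7.64 at day 0, 7.87 and 7.91 at day 5, 11.75 and 12.77 at day 6, then 13.23 and 13.58 at day 10. At day 6 the Sox17 shRNA arrays lay on either side of the control pair, and at day 10 both were above it. From day 5 to day 6 Acta2 rose by 4.76 in the control arm (27.1-fold, SE 0.30, adjusted p = 4.81e-09) and by 4.37 in the Sox17 shRNA arm (20.6-fold, SE 0.30, adjusted p = 1.07e-07). The arm difference passed the test at none of the 7 days. The day 4 to 10 average was 0.15 (SE 0.13, adjusted p = 0.472), with a 95% interval of -0.13 to 0.43, and at day 10 it was 0.48 (SE 0.30, adjusted p = 0.408), with an interval of -0.15 to 1.10. Without the 3 doubted arrays the average was -0.07 (adjusted p = 0.535) and day 4, then resting on 1 Sox17 shRNA array, was lower by 0.74 (adjusted p = 0.0173).

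Acta2 was read by a probe set of the _s_at type, whose probes can match transcripts of related genes. The other probe sets of Acta2 stayed near background, at 3.46 to 6.22 over all arrays. On the brighter of these the control arm differed by 0.24 between days 0 and 10 (adjusted p = 0.398), against 5.48 (adjusted p = 4.1e-11) on the main probe set. In a fit of all probe sets with a symbol, the dimmer one rose by 0.93 over the same days (adjusted p = 0.00458). From day 0 to day 8 the brighter one rose by 0.65 (adjusted p = 0.0247) and the dimmer one by 1.30 (adjusted p = 0.000285) in that arm. The size of the Acta2 rise therefore rests on the main probe set.

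Actg2, the actin of visceral smooth muscle, came on later than Acta2 and ended higher in the Sox17 shRNA arm. Control arrays read 5.22 and 5.18 at day 6, 6.82 and 7.01 at day 8, then 8.86 and 8.89 at day 10. Sox17 shRNA arrays read 4.91 and 5.65 at day 6, 7.28 and 7.52 at day 8, then 9.45 and 9.59 at day 10. At days 8 and 10 both Sox17 shRNA arrays were above both control arrays. The day 10 difference was 0.65 (1.57-fold, SE 0.19, adjusted p = 0.0349), and Actg2 was the 1 of 7 members called at that day, where 10.0% of all genes were called. That call was lost on leaving out any of its 4 arrays (adjusted p 0.0937 to 0.188). Averaged over days 4 to 10 the difference was 0.34 (SE 0.08, adjusted p = 0.00511), and it stayed called on leaving out each array of those days in turn. Without the 3 doubted arrays the average was 0.32 (adjusted p = 0.000705), and Actg2 was also called at day 4 (0.54, adjusted p = 0.0223). Between days 0 and 10 Actg2 rose by 4.71 in the control arm (SE 0.19, adjusted p = 7.29e-13) and by 5.16 in the Sox17 shRNA arm (SE 0.23, adjusted p = 1.34e-11).

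Tagln, the actin-binding protein transgelin, gave the largest arm difference of the set, and it was at day 5. The control arm dipped at that day: its arrays read 8.69 and 8.45 at day 4, 6.35 and 6.08 at day 5, then 11.04 and 11.43 at day 6. The Sox17 shRNA arrays showed little of this dip, with 9.53 and 9.98 at day 4, 9.73 and 8.90 at day 5, then 11.19 and 12.25 at day 6. At days 4 and 5 both Sox17 shRNA arrays lay above both control arrays. The arms overlapped at day 8, at 12.23 and 12.25 against 11.89 and 12.68, and at day 10 the Sox17 shRNA arrays (11.71 and 12.59) were again above the control arrays (11.61 and 11.56). The day 5 difference was 3.10 (8.57-fold, SE 0.38, adjusted p = 0.000113). Tagln and Myl9 were the 2 of 7 members called at day 5, both higher, beside 9.39% of all genes called.

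In the control arm Tagln dropped by 2.36 from day 4 to day 5 (SE 0.38, adjusted p = 0.000943), while the Sox17 shRNA arm differed by -0.44 (SE 0.38, adjusted p = 0.539). The difference between these changes, 1.92 (SE 0.54), did not pass the test (adjusted p = 0.286), in a comparison that called 0 of 7 members and 0.0978% of all genes. The bioB signal differed between the control replicates of day 4, where replicate 2 (6.88) was near the arrays of day 5 (6.72 and 6.66) and read 8.45 for Tagln; the part of bioB in the drop was not tested. From day 5 to day 6 Tagln rose by 5.02 in the control arm (SE 0.38, adjusted p = 6.88e-08) and by 2.41 in the Sox17 shRNA arm (SE 0.38, adjusted p = 0.000404). Here the difference between arms, -2.61 (SE 0.54), passed (adjusted p = 0.0234), and Tagln was the 1 of 7 members called where 0.707% of all genes were.

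The arm difference of Tagln was thus unequal in time. It was 1.18 at day 4 (SE 0.38, adjusted p = 0.0816), 0.49 at day 6 (adjusted p = 0.62), 0.05 at day 8 (adjusted p = 0.985) and 0.56 at day 10 (adjusted p = 0.464). The F test of equal differences over days 4 to 10 was passed by Tagln (adjusted p = 0.00896) and Des (adjusted p = 0.0188), 2 of 7 members, where 4.84% of all genes passed. The day 5 difference exceeded the day 10 difference by 2.54 for Tagln (SE 0.54, adjusted p = 0.00927), the 1 of 7 members called in a comparison with 4.53% of all genes called. The latter call did not survive leaving out Sox17 shRNA replicate 1 of day 5 (2.13, adjusted p = 0.0633) or of day 10 (2.10, adjusted p = 0.0617), and the F test called 0 of 7 members without control replicate 2 of day 5. Averaged over days 4 to 10, Tagln was higher by 1.07 (2.11-fold, SE 0.17, adjusted p = 0.000107). Without the 3 doubted arrays the day 5 difference was 3.51 (adjusted p = 1.79e-05) and the average 1.01 (adjusted p = 0.000135).

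Genes of undifferentiated cells and of early mesoderm also differed at day 5, when 6.15% of all genes were higher in the Sox17 shRNA arm. Among 7 tested early mesoderm and primitive streak genes 4 were higher at day 5 in the Sox17 shRNA arm, the highest being the homeobox gene Mixl1 (4.13, SE 0.37, adjusted p = 4.6e-06), the growth factor gene Fgf8 (2.62) and the homeobox gene Evx1 (2.48), with a median of 1.44 over the list. Among 6 pluripotent stem cell genes 4 were higher, with a median of 2.19. The pluripotent list was not high at day 5 alone: 2 of 6 were higher at day 4 (median 0.95), and 0 of 6 were called at day 10 (median 1.02). The mean level of the early mesoderm list at day 5 was 6.69 and 6.78 on the control arrays and 8.73 and 8.29 on the Sox17 shRNA arrays; the pluripotent list read 7.25 and 6.95 against 9.66 and 7.95. Their part in the Tagln difference was not tested.

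Myl9, the regulatory light chain, also dipped at day 5 in the control arm, but its Sox17 shRNA arrays disagreed. Control arrays read 6.77 and 7.03 at day 4, 5.56 and 5.61 at day 5, then 8.70 and 9.30 at day 6, against 7.84 and 7.68, 7.37 and 6.02, and 8.72 and 9.39 in the Sox17 shRNA arm. All 4 Sox17 shRNA arrays of days 4 and 5 were above the control arrays of their day, and from day 6 on the arms were close. The day 5 difference was 1.10 (2.15-fold, SE 0.31, adjusted p = 0.0353). It failed the test on leaving out control replicate 1 (adjusted p = 0.181), replicate 2 of that arm (adjusted p = 0.13) or Sox17 shRNA replicate 1 (0.43, adjusted p = 0.566) of day 5. Averaged over days 4 to 10 Myl9 was higher by 0.41 (SE 0.14, adjusted p = 0.0371), a call lost in 13 of 20 fits that left out 1 array. With the 3 doubted arrays left out, Myl9 was higher by 0.94 at day 4 (adjusted p = 0.0171) and 1.78 at day 5 (adjusted p = 0.000121), each then on 1 Sox17 shRNA array. At day 0 the 1 Sox17 shRNA array read 6.86 against 5.55 and 5.51 (1.34, adjusted p = 0.0856), so that array too lay above the controls, before differentiation.

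Tpm2, a tropomyosin, was modestly higher in the Sox17 shRNA arm by its main probe set, and its probe sets disagreed. On the main one the control arrays read 9.64 and 10.10 at day 6, 10.57 and 10.62 at day 8, then 10.34 and 10.33 at day 10. The Sox17 shRNA arrays read 10.07 and 10.76, 10.53 and 11.08, and 10.76 and 11.28. The arms overlapped at days 6 and 8 and did not at day 10. The average difference over days 4 to 10 was 0.40 (1.32-fold, SE 0.10, adjusted p = 0.00678), and at day 10 it was 0.68 (SE 0.23, adjusted p = 0.0715). The average was 0.26 without the 3 doubted arrays (adjusted p = 0.0381).

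**Figure D2:**
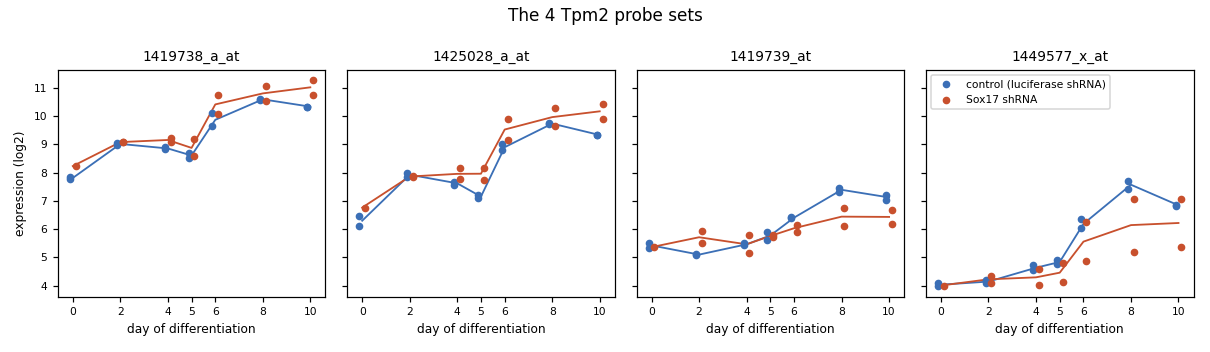
Log2 expression (vertical axis) of the 4 probe sets of Tpm2 by day of differentiation (horizontal axes), one panel each; points are arrays and lines join group means, blue for control and red for Sox17 shRNA. The 2 panels on the left lie higher in the Sox17 shRNA arm from day 6, and the 2 on the right lie lower.

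In a fit of all probe sets with a symbol, 2 of the 4 Tpm2 probe sets averaged higher under Sox17 shRNA from day 4 to day 10, by 0.40 on the main one (adjusted p = 0.00887) and by 0.57 on another of the _a_at type (adjusted p = 0.00081). The other 2 averaged lower, at -0.41 on a plain _at probe set (SE 0.10, adjusted p = 0.00693) and -0.68 on one of the _x_at type (SE 0.23, adjusted p = 0.0485). On the plain one the control arrays read 7.45 and 7.33 at day 8 and the Sox17 shRNA arrays 6.12 and 6.76, a difference of -0.95 (SE 0.22, adjusted p = 0.0201). All 4 probe sets were higher at day 10 than at day 0 in the control arm, by 1.70 to 3.03. Tropomyosin genes are spliced into several isoforms, and which transcripts each probe set reads was not tested, so no direction is given for the Tpm2 gene as a whole.

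Cnn1, calponin, rose by day 2, dipped at day 5 and peaked at day 8 in the control arm, and its arm difference passed at day 8 alone. Control arrays read 7.22 and 7.14 at day 2, 5.57 and 5.46 at day 5, 7.96 and 7.81 at day 8, and 6.89 on both at day 10. Sox17 shRNA arrays read 6.81 and 7.27 at day 2, 6.20 and 5.78 at day 5, 6.48 and 7.23 at day 8, then 6.04 and 6.75 at day 10. Both Sox17 shRNA arrays were below both controls at days 8 and 10 and above them at day 5. The day 8 difference was -1.03 (SE 0.26, adjusted p = 0.0241), and Cnn1 and Des were the 2 of 7 members called at that day, both lower, beside 4.82% of all genes. Leaving out an array of day 8 ended the Cnn1 call in 3 cases: control replicate 1 (adjusted p = 0.198), replicate 2 of that arm (adjusted p = 0.112) and Sox17 shRNA replicate 1 (adjusted p = 0.33). The day 4 to 10 average was -0.20 (SE 0.12, adjusted p = 0.243). With the 3 doubted arrays left out it was -0.24 (adjusted p = 0.129), and the day 5 difference of Cnn1 exceeded that of day 10 by 1.19 (adjusted p = 0.0406).

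Des, the desmin gene shared by all muscle types, was the member with the most lasting fall. Control arrays read 6.38 and 6.36 at day 5, 7.78 and 7.57 at day 6, 8.19 and 8.06 at day 8, then 7.86 and 7.91 at day 10. Sox17 shRNA arrays read 6.61 and 6.47 at day 5, 6.75 and 6.59 at day 6, 7.34 and 6.87 at day 8, then 7.63 and 7.26 at day 10. The arms did not overlap at days 6, 8 and 10, with the Sox17 shRNA arm lower. Expression was 2.01-fold lower at day 6 (log2 SE 0.20, adjusted p = 0.00462), where Des was the 1 of 7 members called beside 5.20% of all genes, and 2.03-fold lower at day 8 (log2 SE 0.20, adjusted p = 0.00373).

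At day 10 the Des difference was -0.44 (SE 0.20, adjusted p = 0.197), and over days 4 to 10 it averaged -0.44 (SE 0.09, adjusted p = 0.00101). Day 6 no longer passed without its control replicate 1 (-0.90, adjusted p = 0.0857), nor day 8 without its control replicate 1 (adjusted p = 0.0566) or Sox17 shRNA replicate 2 (adjusted p = 0.0564). Without the 3 doubted arrays Des was called at day 6 (-0.92, adjusted p = 0.0142) and on the average (-0.35, adjusted p = 0.00639). Des rose by 1.31 from day 5 to day 6 in the control arm (SE 0.20, adjusted p = 0.000211) and differed by 0.13 in the Sox17 shRNA arm (SE 0.20, adjusted p = 0.744). The difference between these steps was -1.18 (SE 0.28, adjusted p = 0.0645). Between days 0 and 10 it rose by 0.55 in the control arm (adjusted p = 0.0196), a call lost without control replicate 2 of day 0 (adjusted p = 0.116) or either control array of day 10 (adjusted p 0.0569 and 0.0783). The second Des probe set stayed between 4.94 and 5.72 and did not pass the filter.

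Myh11, the smooth muscle myosin heavy chain and the defining gene of differentiated smooth muscle, did not pass the filter. Its 2 probe sets read 4.05 to 4.93 and 3.90 to 4.52 over all arrays, under the median of all values (5.53) on each of the 27. Even at day 10 they read 4.02 to 4.45 in both arms together. The set is therefore described by the known roles of its genes, and no smooth muscle cell type is named from it.

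Over the set, the numbers of members called between the arms were 0 of 7 at day 0 (1.89% of all genes), 0 of 7 at day 2 (2.54%) and 0 of 7 at day 4 (5.14%). On the average of days 4 to 10, 4 of 7 members were higher (Actg2, Tagln, Myl9 and the main probe set of Tpm2, whose other probe sets disagreed) where 14.8% of all genes were, and 1 of 7 was lower (Des) where 12.2% of all genes were. The median difference of the 7 was 0.34, against 0.01 over all genes. In exact permutation tests of single genes, with arms reassigned within days (7776 assignments, two-sided, 7 genes tested and p not adjusted, smallest p possible 0.000257), Tpm2 gave 0.00437, Tagln 0.00617, Actg2 0.00746, Des 0.0242, Myl9 0.0368, Cnn1 0.299 and Acta2 0.346. With the 3 doubted arrays left out the same 5 members were called.

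The heart muscle genes, 27 genes of the cardiac sarcomere, its calcium cycle and the natriuretic peptides, went another way as a list from day 6. Before plating, 1 of 27 was lower at day 2 and 1 of 27 at day 4, where 2.54% and 5.14% of all genes were called in either direction. Actc1, the heart actin, read 12.20 and 12.28 in the control arm at day 6 and 8.29 and 8.14 in the Sox17 shRNA arm, a difference of -4.02 (SE 0.20, adjusted p = 2.18e-10), and at day 10 the difference was -2.67 (SE 0.20, adjusted p = 4.68e-08). Tnnt2, a troponin of the thin filament, read 10.98 and 11.05 against 4.97 and 5.37 at day 6 (-5.85, SE 0.16, adjusted p = 4.47e-14). Tnnt2 passed the filter only through arrays of day 6 or later, and at day 6 the control arrays alone exceeded the filter level. Its day 6 difference was therefore not free of the way it entered the test. Myh6, the atrial myosin heavy chain, read 9.39 and 9.22 against 3.84 and 3.96 at day 6 (-5.40, SE 0.15, adjusted p = 4.47e-14). Myl7, the atrial light chain, read 12.31 and 12.50 against 5.54 and 6.09 at day 6 (-6.59, SE 0.37, adjusted p = 1.35e-09). Already at day 4 Myl7 averaged 7.49 in the control arm and 4.96 in the Sox17 shRNA arm.

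Counts of calls were as follows. Heart muscle genes were lower under Sox17 shRNA in 2 of 27 at day 5 (3.24% of all genes were lower), 19 of 27 at day 6 (2.36%), 24 of 27 at day 8 (2.93%) and 24 of 27 at day 10 (4.38%), and higher in 0 at each of these days. Of the 7 contractile genes 0 were lower and 2 higher at day 5, 1 lower (Des) and 0 higher at day 6, 2 lower (Cnn1 and Des) and 0 higher at day 8, and 0 lower and 1 higher (Actg2) at day 10. The contractile calls of days 6 and 8 thus ran the same way as those of the heart genes. The median differences of the heart list were -0.04, -1.69, -2.74 and -2.54. The contractile genes had medians of 0.32, 0.06, 0.05 and 0.48 at the same days, and over all genes the medians were 0.00, 0.03, -0.01 and 0.02. From day 0 to day 10 the heart list rose in 25 of 27 genes in the control arm (median 3.04) and in 15 of 27 in the Sox17 shRNA arm (median 0.81). The contractile genes rose in 7 of 7 (median 4.68) and 6 of 7 (median 4.24), where 31.5% and 28.2% of all genes rose. From day 5 to day 6, 22 of 27 heart genes rose in control cells (11.2% of all genes) and 7 of 27 in Sox17 shRNA cells (9.81%). The difference between the arms in that step was called for 13 of 27 heart genes, all lower, and for Tagln alone of the 7 contractile genes. In that comparison 0.707% of all genes were called in either direction. Of the heart genes 9, among them Tnnt2, passed the filter only through arrays of day 6 or later, as did Actg2, so their changes were bound to their entry. The other 18 rose from day 0 to day 10 in 16 of 18 in the control arm (median 3.05) and in 8 of 18 in the Sox17 shRNA arm (median 0.43), a count added after seeing the data. The counts and medians of the arm differences at days 6, 8 and 10 include the 9 genes and were not repeated without them. The lists were not tested against each other.

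**Figure D3:**
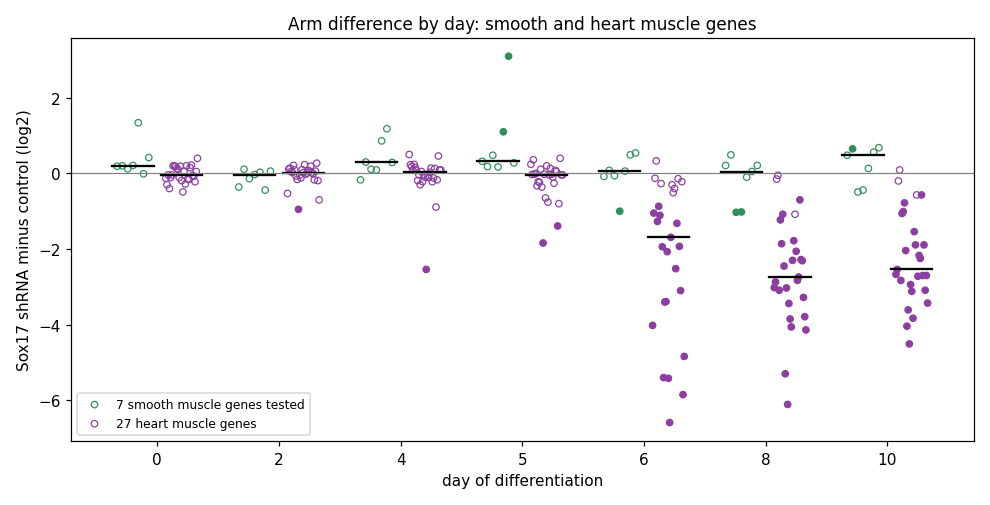
Arm difference (log2, vertical axis) at each day of differentiation (horizontal axis, days as categories) for the 7 smooth muscle genes tested (green) and the 27 heart muscle genes (purple); each point is a gene, filled where its adjusted p is below 0.05, and black bars are list medians. The purple points fall to medians of -1.69, -2.74 and -2.54 at days 6, 8 and 10, while the green medians lie between 0.05 and 0.48.

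**Figure D4:**
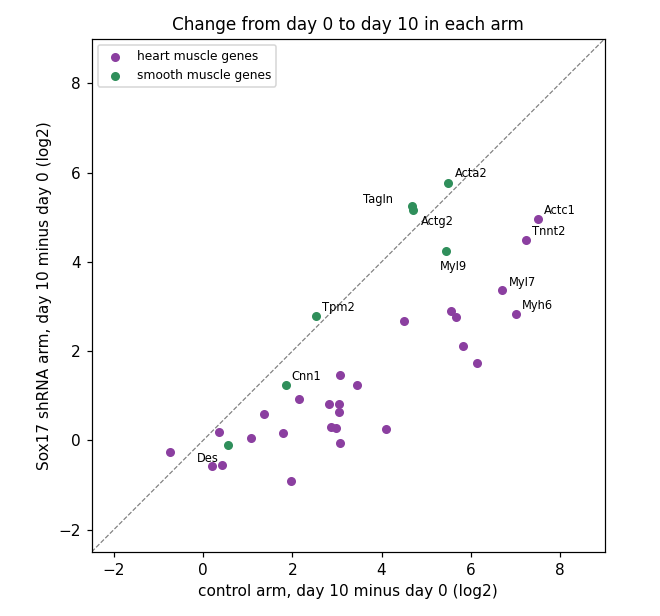
Change from day 0 to day 10 (log2) in the control arm (horizontal axis) against the Sox17 shRNA arm (vertical axis), 1 point per gene; the dashed line marks equal change. Of the contractile genes Acta2, Actg2, Tagln and Tpm2 (main probe set) lie just above the line and Myl9, Cnn1 and Des below it, as do Actc1, Tnnt2, Myl7 and Myh6. The vertical axis rests on 1 Sox17 shRNA array at day 0, where Myl9 read 6.86 against a control mean of 5.53. At day 10 Myl9 averaged 11.11 in the Sox17 shRNA arm and 10.98 in the control arm.

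The regulators of the set were divided. Myocd, the myocardin shared by heart and smooth muscle, read 9.74 and 9.58 in the control arm at day 6 and 6.13 and 6.15 in the Sox17 shRNA arm, a difference of -3.52 (11.5-fold, SE 0.21, adjusted p = 3.54e-09). It was also lower at day 8 (-2.11, SE 0.21, adjusted p = 3.12e-06) and at day 10 (-1.82, SE 0.21, adjusted p = 1.39e-05), and its second probe set was lower at day 6 too, in a fit of all probe sets that passed the filter (-1.34, adjusted p = 2.86e-06). On the main probe set Myocd still rose by 1.67 from day 5 to day 6 in the Sox17 shRNA arm (SE 0.21, adjusted p = 5.18e-05), against 4.79 in the control arm (SE 0.21, adjusted p = 3.6e-11). Myocd passed the filter only through arrays of day 6 or later, as did Actg2, so these rises were bound to its entry. The second probe set showed no such rise in the Sox17 shRNA arm. It averaged 4.85 at day 5 and 4.84 at day 6 there, against 4.84 and 6.18 in the control arm.

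Srf and the myocardin-related factors were called at none of the 7 days. Averaged over days 4 to 10 the arm difference was -0.14 for Srf (SE 0.09, adjusted p = 0.275, 95% interval -0.32 to 0.04), 0.06 for Mrtfa (SE 0.10, adjusted p = 0.734, interval -0.16 to 0.28) and -0.14 for Mrtfb (SE 0.08, adjusted p = 0.256, interval -0.31 to 0.04). On its main probe set Srf rose from day 5 to day 6 by 1.21 in the control arm (adjusted p = 0.000337) and by 1.02 in the Sox17 shRNA arm (adjusted p = 0.00172). The step was smaller on its second probe set, where the control arm averaged 7.06 at day 5 and 7.54 at day 6. Of 7 tested genes that Srf drives in many cell types, such as the serum response genes Egr1 and Fos and the cytoplasmic actins, 0 were called on the average, with a median difference of 0.06. Of all genes 14.8% were higher and 12.2% lower on that average.

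**Figure D5:**
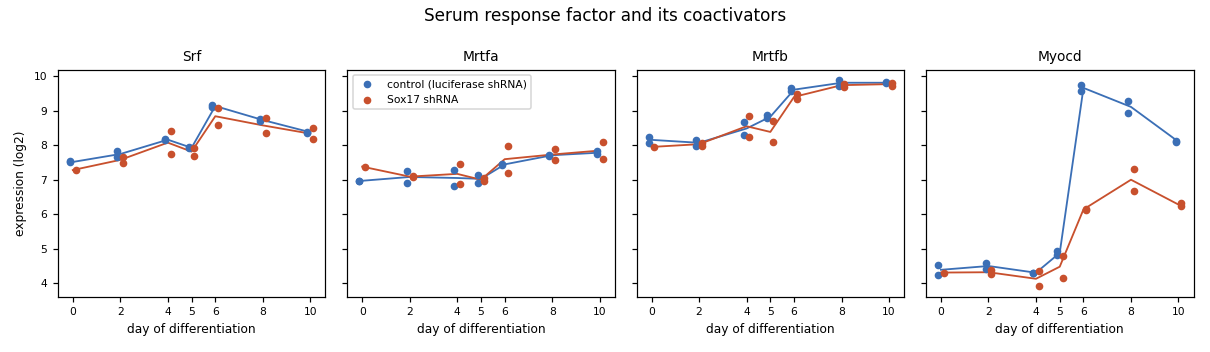
Log2 expression (vertical axis) of serum response factor and 3 coactivators by day of differentiation (horizontal axes); points are arrays and lines join group means, blue for control and red for Sox17 shRNA. The arms part at Myocd from day 6, with 9.74 and 9.58 against 6.13 and 6.15, and lie close for Srf, Mrtfa and Mrtfb.

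Of all 15 regulators tested, 6 were lower and 1 higher on average over days 4 to 10 (median -0.22), where 12.2% of all genes were lower and 14.8% higher. The lowest were Myocd (-1.60, SE 0.09, adjusted p = 1.29e-09), Klf4 (-1.51, SE 0.20, adjusted p = 1.81e-05), a factor known to repress smooth muscle genes, and Mef2c (-1.42, SE 0.12, adjusted p = 7.97e-08), a partner of myocardin. Notch3, a receptor of vascular smooth muscle and pericytes, was the 1 higher gene (0.47, SE 0.13, adjusted p = 0.0134). Tbx18 did not pass the filter on low signals.

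Other smooth muscle genes numbered 15 tested, of which 4 were higher and 1 lower on average over days 4 to 10 (median 0.13), where 14.8% of all genes were higher and 12.2% lower. At day 10, 2 were higher and 0 lower (median 0.03), where 5.62% of all genes were higher. The higher ones included Ppp1r14a, an inhibitor of myosin phosphatase (0.65, SE 0.13, adjusted p = 0.000761), Pgm5, a protein of adherens plaques (0.42, SE 0.08, adjusted p = 0.000539) and Cald1, caldesmon (0.32, SE 0.09, adjusted p = 0.0163). Ppp1r12b, a myosin phosphatase subunit, was lower (-0.26, SE 0.07, adjusted p = 0.0118). From day 0 to day 10, 11 of the 15 rose in each arm, with medians of 0.88 in control and 1.14 in Sox17 shRNA cells. Of the 15, 2 passed the filter only through arrays of day 6 or later, so their changes from day 0 were bound to their entry. Cald1 rose by 4.21 and 4.36, Tpm1, the tropomyosin shared with heart, by 3.68 and 2.89, and Itga8, an integrin, by 3.86 and 3.22.

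Transforming growth factor beta, which induces contractile genes, was represented by 15 tested genes of its pathway. On average over days 4 to 10, 4 were higher and 1 lower, where 14.8% and 12.2% of all genes were, while the median was -0.09. The ligand gene Tgfb1 (0.60, SE 0.16, adjusted p = 0.00703), the target Tgfbi (0.50, SE 0.12, adjusted p = 0.0057) and the inhibitor Smad7 (0.38, SE 0.11, adjusted p = 0.0109) were higher, and the receptor gene Tgfbr1 was lower (-0.32, SE 0.06, adjusted p = 0.000453). At day 10 the ligand gene Tgfb3 alone was called (1.07, SE 0.17, adjusted p = 0.000427).

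Markers of other cells that express some of these genes moved between the arms as well. Of 11 fibroblast and mesenchyme genes, 5 were higher and 0 lower at day 10 (median 1.22), where 5.62% of all genes were higher and 4.38% lower. They were led by Dcn, decorin (2.20, SE 0.25, adjusted p = 1.05e-05), Lum, lumican (1.70, SE 0.37, adjusted p = 0.0057) and the collagen gene Col1a2 (1.70, SE 0.28, adjusted p = 0.000599). The differences of 3 of the 11 genes were negative at day 10 and did not pass the test. On the average of days 4 to 10, 6 of the 11 fibroblast and mesenchyme genes were higher and 2 lower (median 0.51). Of all genes 14.8% were higher and 12.2% lower on that average. The mean level of the fibroblast and mesenchyme list at day 10 was 9.73 and 9.67 on the control arrays and 10.66 and 10.50 on the Sox17 shRNA arrays. Of 6 epicardium and mesothelium genes 4 were higher at day 10, with Upk3b, a mesothelial uroplakin, at 2.34 (SE 0.35, adjusted p = 0.000205) Wt1, a transcription factor of the epicardium, at 1.75 (SE 0.21, adjusted p = 2.38e-05) and Aldh1a2, which makes retinoic acid, at 1.33. The mean level of this list was 5.67 and 5.71 against 7.24 and 6.47. These lists moved in the same days and direction as Actg2, and their part in its difference was not tested.

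Pericyte genes were higher in 1 of 6 at day 10 (Anpep, 0.88, SE 0.16, adjusted p = 0.00138) and endothelial genes in 0 of 8, where 5.62% of all genes were higher. On the average of days 4 to 10, 3 of 6 pericyte genes were higher and 0 lower, with a median of 0.15. Of 8 endothelial genes 0 were higher and 1 lower on that average, with a median of -0.18. Of all genes 14.8% were higher and 12.2% lower on it. Of 10 skeletal muscle genes, Myog, Myf5, Myf6 and Myh3 did not pass the filter. At day 10, 0 of the 6 tested were called, where 10.0% of all genes were. The mean level of the 6 was 5.41 to 6.37 over all arrays. Visceral endoderm genes were lower in 4 of 6 from day 4 to day 10 on average, with a median of -0.94, where 12.2% of all genes were lower. At day 10, 2 of the 6 were lower (median -1.97), where 4.38% of all genes were. The Sox17 shRNA replicates disagreed. At day 10 the mean level of the visceral endoderm list was 9.57 and 9.58 on the control arrays against 8.63 and 6.67. The arms overlapped at day 8, at 8.52 and 8.07 against 8.46 and 7.02.

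Over the 27 arrays, which share their days of differentiation, Pearson's r among Acta2, Actg2, Tagln, Myl9 and Tpm2 ran from 0.76 (Actg2 with Tagln) to 0.93 (Myl9 with Tpm2), as a description. It was 0.91 for Acta2 with Tagln, 0.90 for Acta2 with Myl9, 0.91 for Acta2 with Tpm2 and 0.83 for Acta2 with Actg2. Des stood apart, with r of 0.33 to 0.57 to the other 6, and Cnn1 had r of 0.29 to 0.66 to the others apart from Des. The genes of the whole table most like each member over the 27 arrays included, for Acta2, Anxa1 (r = 0.984), an annexin, Ckap4 (r = 0.980) and Mprip (r = 0.978), which targets myosin phosphatase. For Actg2 they were Islr (r = 0.986), the collagen gene Col6a1 (r = 0.982) and Tshz3 (r = 0.979), and for Tagln Cnn2, a calponin (r = 0.965), Vcl, vinculin (r = 0.964) and Tgfb1i1 (r = 0.960). For Myl9 the nearest were Rhbdf1 (r = 0.961), Pde4b (r = 0.952) and Cxcl12 (r = 0.952), and for Tpm2 Pdlim7 (r = 0.974), Lrrk1 (r = 0.962) and Unc5b (r = 0.960). For Cnn1 they were Sec63 (r = 0.858), Ube2v1 (r = 0.849) and Errfi1 (r = 0.836). For Des they were Kcnh2 (r = 0.932), a potassium channel of the heart, Hs6st1 (r = 0.864) and Hspb2 (r = 0.853), a small heat shock protein of muscle.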

How the data were processed

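Log2 expression values of 45101 probe sets on 27 arrays were deposited by the authors. The submitters' processing notes name RMA, a method that removes background, quantile-normalizes and sums up each probe set. The version is not given in the sources used here, nor is whether 1 joint run covered the series. Quantile normalization leaves no trace of a change in total RNA, and RMA values level off near background, so changes from low levels come out too small. Gene symbols came from the platform annotation (34958 with 1 symbol, 932 with several, 9211 not listed). Single-symbol probe sets above the median of all values (5.53) on at least 2 arrays were kept (23536), and 1 per gene, that with the highest mean, was tested (13297 genes). Of these genes, 439 passed only through arrays of day 6 or later. They included 3 of 15 regulators, 3 of 11 fibroblast and mesenchyme genes and 3 of 8 endothelial genes.

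Group means of the 14 groups were fitted to all 27 arrays with limma 3.58.1 in R 4.3.3 (eBayes with an intensity trend, 13 residual and 4.68 prior degrees of freedom). P-values are two-sided and Benjamini-Hochberg adjusted over all genes tested in each comparison, and a gene with an adjusted p below 0.05 was called. SE are those of the fit. The lone Sox17 shRNA array of day 0 takes its spread from the other groups. The scripts were tested on simulated data. The labels call the arrays of a group biological replicates but do not say whether they are separate transductions, so p-values measure the spread between these cultures, and averages over days treat days as independent. The members and lists were chosen with earlier results of these data known. Named from a list were up to 3 of the highest and of the lowest genes that passed, beside all members, Sox17, Srf, Myocd, Mrtfa, Mrtfb, Actc1, Myh6, Tnnt2, Myl7 and the genes most like each member by Pearson's r. Other filters, probe sets, weights, blocks and left-out arrays were tried as alternatives.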

Additional observations from a re-analysis of the deposited data

Results flagged for a closer look

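Tagln was marked because its arm difference changed with the day. The difference at day 5 minus that at day 10 was 2.54 (SE 0.54, adjusted p = 0.00927), and the F test of equal differences over days 4 to 10 gave an adjusted p of 0.00896. Des was marked by the same F test (adjusted p = 0.0188): its arm difference was 0.17 at day 5 and -0.44 at day 10, and between them expression was 2.01-fold (day 6) and 2.03-fold (day 8) lower. Groups of 1 or 2 arrays are too small for a test of outlying samples, so none was made.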

How the results depend on the processing

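The number of the 7 members called between the arms was 0 up to day 4, 2 at day 5 and day 8, 1 at day 6 and day 10, and 5 on the average of days 4 to 10. At day 10 it was 2 with the next probe set of each gene, 3 with array weights and 2 with the bioB signal as a covariate, a term added after seeing the data. With the arrays of the days compared alone it was 2 at day 0, 1 at day 5 and in the F test of equal differences, and 0 at day 8. With array weights it was 1 at day 0 (Myl9). Leaving out replicate 2 of the Sox17 shRNA arm at days 4, 5 and 6 together, also added later, gave 3 at day 4, 3 for day 5 against day 10 and 6 in the F test. Leaving out each array in turn gave 1 to 2 at day 5, 0 to 1 at days 6, 8 and 10, 0 to 2 for day 5 against day 10, 0 to 3 in the F test and 4 to 5 on the average. The cause of these changes was not tested, except that left-out arrays leave fewer samples.

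Replicate numbers are shared between the arms, and same-numbered arrays deviated together by r of 0.683 at day 4 and 0.099 to 0.22 at the other days from 2 to 10, so the numbers were not taken to pair the samples. The replicate block gave 2 members at day 10 (Actg2 and Tpm2, the latter with adjusted p = 0.0164), and the replicate block within day gave 3 (Tpm2 with 0.0187, also Des with 0.046); the block changed no other call.

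Of 203 counts under an alternative 173 stayed within 1.5 times the main count and 30 did not. Of 1218 single values 1163 kept their side of the threshold, 38 fell short of it, 17 passed it and 0 called values turned; 37 differences that did not pass changed sign. The next probe set tried was the second brightest of each gene, so the Tpm2 probe sets that averaged lower were not among these values. Centring each array on its median changed 1 call, Des between days 0 and 10 of the control arm (0.43, adjusted p = 0.0752). With 2 arrays a group and 14 groups the number of arrays limits precision, and Myh11 and the lesser Acta2 and Des probe sets lie near background.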
